A study of Homo sapiens with 8 samples.

Results

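PAX6, TP63, CLU, TKT and ALDH3A1, a set of 5 genes used to recognise the corneal epithelium, were read in RNA sequencing libraries of a human corneal epithelial cell line. Members were the genes of the deposited table with exactly these symbols, and each of the 5 was among the 18430 genes listed. TKT, CLU and PAX6 were above 1 TPM in each of the 8 libraries, whereas ALDH3A1 and TP63 stayed below 1 TPM in each. CLU, TKT and PAX6 were higher under the air-liquid stimulus than in static culture, with fold changes of 0.93, 0.37 and 0.50 on the log2 scale, and no member was called with diclofenac alone. In the comparison of the stimulus alone with the static control, the calls of TKT and PAX6 were lost when either static library or the second stimulated library was left out.

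The corneal epithelium is a stratified, non-keratinizing sheet that is renewed from basal stem cells at the limbus. PAX6 encodes a paired-box and homeobox transcription factor required for eye development and for keeping corneal epithelial cells from taking on a skin-like state. TP63 encodes a transcription factor of basal cells in stratified epithelia, and its shorter isoforms mark limbal progenitors. The other members are products of the differentiated tissue. CLU encodes clusterin, a secreted chaperone of the ocular surface, TKT encodes transketolase of the pentose phosphate pathway, and ALDH3A1 encodes an aldehyde dehydrogenase. The last of these enzymes, and transketolase, are so abundant in the mammalian cornea that they have been called corneal crystallins.

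HCE-T cells, a line immortalized with a viral antigen, were seeded in a microfluidic device and cultured for 7 days in a medium with serum, insulin, epidermal growth factor and dimethyl sulfoxide, which all groups shared. Groups of 2 libraries each then spent a further day in static culture (ST), static culture with 50 µM of the anti-inflammatory drug diclofenac (ST_DCF), repeated cycles of air and liquid (AL), or those cycles with 50 µM diclofenac (AL_DCF). Libraries of a group are described in the methods as independent biological duplicates, so p-values measure the spread between cultures of a single line. A library is named by its condition and replicate number, as in ST_1. The labels name HCE-T as the source, but their extraction note speaks of myoblasts, and muscle genes were therefore checked as well.

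Library totals lay between 32880479 and 46369412 counts, and the 4 libraries with the AL stimulus, from 41854839 counts, were deeper than the 4 without it, which reached 37954695. The part of depth in the results below was not tested. Levels are given in TPM, which corrects for transcript length and can be compared between genes. Changes are log2 fold changes of counts from edgeR's quasi-likelihood test, fitted to 17445 genes in all 8 libraries, and a gene is called at a Benjamini-Hochberg adjusted p under 0.05. With 2 libraries against 2, an exact permutation test could not give a two-sided p below 0.333, so none is printed.

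The members spanned a wide range of levels. TKT had a mean of 396 TPM over the 8 libraries and ranked at 359 of 18430 genes, above 98.1% of them. CLU followed at 62.9 TPM (rank 3156) and PAX6 at 9.78 TPM (rank 9715), which was just under the median gene at 11.6 TPM. ALDH3A1 had a mean of 0.690 TPM (rank 15656) and TP63 one of 0.257 TPM (rank 17202), near the bottom of the table. The level of TKT was 575 times that of ALDH3A1 and 1540 times that of TP63. For comparison, 14963 genes or 81.2% of the table had a mean of at least 1 TPM.

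**Figure D1:**
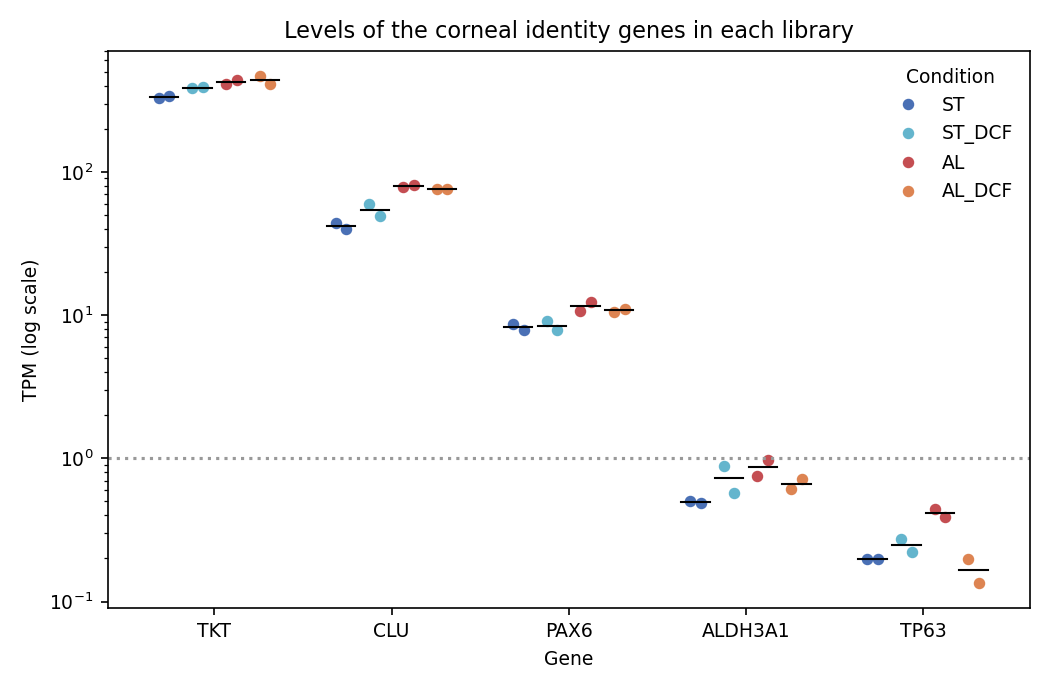
TPM of the 5 genes (log scale) in each library, coloured by condition, with black bars for the mean of the 2 libraries of a condition and a dotted line at 1 TPM. TKT, CLU and PAX6 lie above the line and ALDH3A1 and TP63 below it in all 8 libraries, and the order of the genes is the same in every condition.

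Counting precision followed these levels. TKT had 14386 to 26567 counts per library, CLU 1590 to 4252 and PAX6 296 to 611. ALDH3A1 had 19 to 48 counts and TP63 15 to 47. A single TP63 library was thus known only loosely from counting alone, and ST_1, with 16 counts, had an exact 95% Poisson interval of 9.15 to 26.0. Such intervals cover counting error only. All 5 members passed the expression filter of edgeR and also had at least 10 counts in every library.

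On RefSeq GRCh38.p14, PAX6 (gene identifier 5080) lies on chromosome 11 from 31789026 to 31817961 on the minus strand. TP63 (8626) lies on chromosome 3 from 189596746 to 189897276 on the plus strand, and TKT (7086) on the same chromosome from 53224712 to 53256022 on the minus strand. ALDH3A1 (218) lies on chromosome 17 from 19737984 to 19748298 on the minus strand. The table sums 53 RefSeq transcripts under PAX6 and 13 under TP63, so the long and the short isoforms of TP63, or those of PAX6 with and without the extra paired-domain exon, were not separated.

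Promoter sequences from RefSeq (GRCh38.p14) matched 3 of the 5 members by symbol, and they are shown because they set a member that rose and is abundant (TKT), one that rose at a middle level (PAX6) and one near the floor (TP63) side by side. Each run covers the 250 bases before a listed start, 5′ to 3′ on the strand of the gene. Capitals mark matches, on both strands, to the GC box GGGCGG, the cyclic AMP response element TGACGTCA and the CCAAT box CCAAT. For PAX6, the most upstream of 9 listed starts is shown. The TP63 window, at the single start listed, lies inside the annotated span of the gene and not at its 5′ end as in TKT and PAX6, and the starts of its other isoforms were not analysed here.
TKT, chr3:53256023-53256272, minus strand: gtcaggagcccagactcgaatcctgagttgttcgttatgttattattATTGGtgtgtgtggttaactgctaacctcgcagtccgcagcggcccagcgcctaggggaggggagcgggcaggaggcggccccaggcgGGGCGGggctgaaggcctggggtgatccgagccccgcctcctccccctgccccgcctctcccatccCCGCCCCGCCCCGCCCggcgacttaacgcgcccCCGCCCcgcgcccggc
PAX6, chr11:31817962-31818211, minus strand: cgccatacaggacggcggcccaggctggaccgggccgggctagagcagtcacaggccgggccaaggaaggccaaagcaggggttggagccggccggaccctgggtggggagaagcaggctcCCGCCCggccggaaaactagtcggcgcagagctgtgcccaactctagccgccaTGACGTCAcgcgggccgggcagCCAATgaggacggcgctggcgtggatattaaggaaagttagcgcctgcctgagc
TP63, chr3:189631139-189631388, plus strand: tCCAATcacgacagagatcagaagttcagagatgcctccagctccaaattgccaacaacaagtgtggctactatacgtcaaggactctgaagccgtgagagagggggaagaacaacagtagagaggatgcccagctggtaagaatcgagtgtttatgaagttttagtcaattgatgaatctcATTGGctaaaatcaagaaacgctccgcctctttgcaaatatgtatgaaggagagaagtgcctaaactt
The TKT window was 70.4% G and C and held 5 GC boxes, some of which overlap at their ends, and 1 CCAAT box. The PAX6 window was 68.4% G and C, with 1 match to each of the 3 motifs. The TP63 window was 44.0% G and C, below the median promoter at 58.0%, and held 2 CCAAT boxes and no GC box. Among 27305 RefSeq promoters cut to the same length, 42.3% held a GC box, 33.0% a CCAAT box and 1.77% the cyclic AMP response element. The TATA box TATAAA (11.1% of promoters), the AP-1 motif TGANTCA (6.6%) and the antioxidant response core TGACNNNGC (11.0%) had no match in these 3 windows. A match describes the letters only.

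In AL against ST, 3 of the 5 members were called higher and none lower, beside 17.9% of all genes tested in either direction, 7.63% higher and 10.3% lower. All 5 fold changes were above 0, with a median of 0.81 on the log2 scale beside −0.00028 for all genes, and all 5 had an unadjusted p under 0.05. DESeq2 called the same number, 3, and edgeR's exact test called 4. Without ST_1, ST_2 or AL_2 the count was 1, each time CLU alone. A lower level of a gene in bulk RNA cannot tell fewer cells of a type from less RNA per cell, and the same holds for a higher one.

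**Figure D2:**
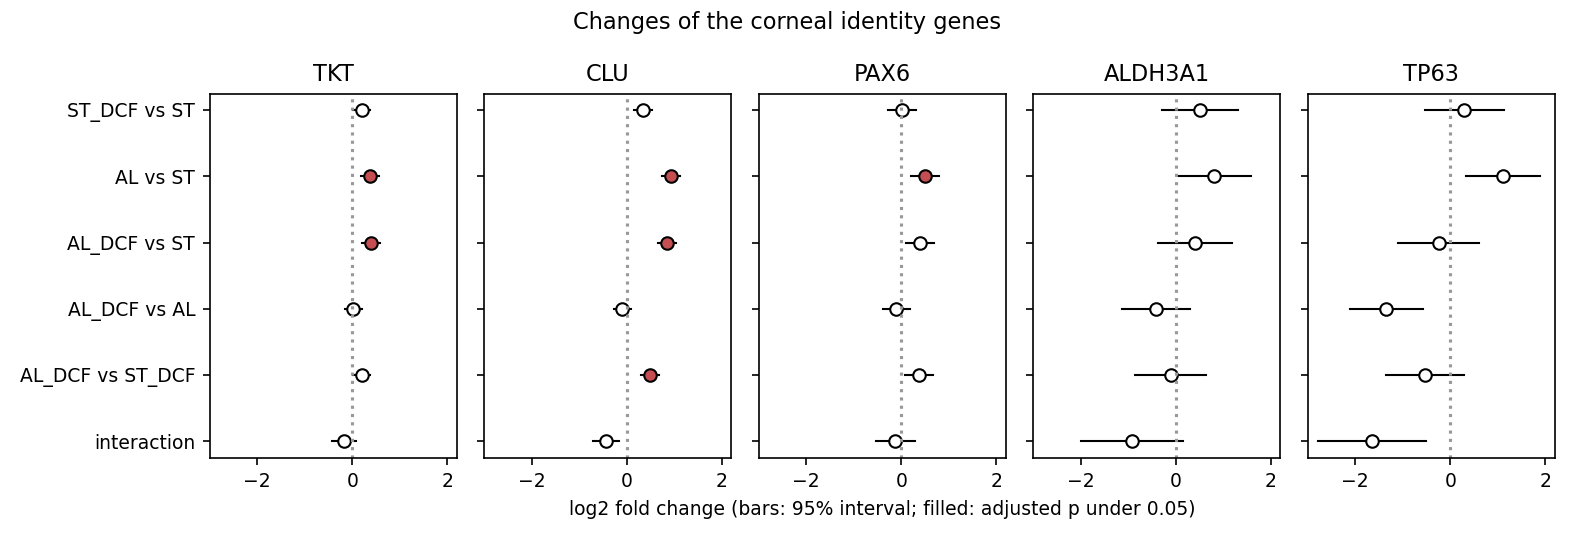
Log2 fold change of each gene in the 5 comparisons between conditions and in the interaction of the AL stimulus with diclofenac, with 95% intervals from edgeR's quasi-likelihood fit and filled points where the adjusted p was under 0.05. CLU is filled in 3 comparisons, TKT in 2 and PAX6 in 1, while the intervals of ALDH3A1 and TP63 are the widest.

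PAX6, the eye-field transcription factor gene, had 8.71 and 7.84 TPM in the 2 ST libraries and 9.07 and 7.81 TPM in ST_DCF. In AL it had 10.8 and 12.4 TPM and in AL_DCF 10.6 and 11.0 TPM. Both conditions with the AL stimulus lay above both without it, and within each of these pairs the libraries overlapped. The means were 8.28 ± 0.615 TPM in ST and 11.6 ± 1.14 TPM in AL (SD, n = 2). Its change in AL was 0.50 on the log2 scale (SE 0.133, adjusted p = 0.0238 by edgeR's quasi-likelihood test). It was 0.40 in AL_DCF against ST (adjusted p = 0.0598) and 0.37 in AL_DCF against ST_DCF (adjusted p = 0.0677), neither of which was called. The call in AL was lost without ST_1 (0.57, adjusted p = 0.0754), ST_2 (0.42, adjusted p = 0.183) or AL_2 (0.38, adjusted p = 0.211).

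PAX6 shares its locus with ELP4, a subunit gene of the Elongator complex on the opposite strand, whose gene model overlaps that of PAX6 over 5550 bases in GENCODE 29. The kit keeps the strand, but whether the counting used it is not given in the sources used here, so reads of the pair are uncertain in the overlap. ELP4 had 8.46 and 7.91 TPM in ST and 9.72 and 9.78 TPM in AL, a change of 0.26 on the log2 scale that was not called (adjusted p = 0.0564). ELP4 was called in AL_DCF against ST, at 0.34 (adjusted p = 0.0177). The antisense transcript PAUPAR, which also overlaps PAX6, had no entry in the table.

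Of 28 listed eye-field and PAX6-network genes, 20 were in the table and tested. In AL against ST, 3 of them rose and 3 fell, beside 7.63% and 10.3% of all genes tested. The list median was 0.03, close to that of all genes. LHX2, an eye-field homeobox gene, rose from 3.52 ± 0.0913 to 5.85 ± 0.123 TPM (SD, n = 2), or 0.71 on the log2 scale (adjusted p = 0.0253). WNT7A, a ligand that acts upstream of PAX6 in corneal cells, fell by 1.67 (adjusted p = 0.00813), MITF, a pigment cell factor, by 0.71 (adjusted p = 0.0113), and the kinase gene HIPK2 by 0.48 (adjusted p = 0.0152). The most abundant genes of the list, TFAP2A at 82.8 TPM and PITX1 at 52.8 TPM over the 8 libraries, were not called. The genes that rose numbered 0 without ST_1, 1 without ST_2, 1 without AL_1 and 0 without AL_2, and those that fell numbered 1, 1, 0 and 1.

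TP63 was the lowest member. It had 0.197 TPM in both ST libraries, 0.273 and 0.223 TPM in ST_DCF, 0.443 and 0.391 TPM in AL and 0.199 and 0.136 TPM in AL_DCF. The AL libraries stood above the 6 others, and AL_DCF overlapped ST. The counts behind these levels were 16 and 15 in ST, 47 and 39 in AL and 20 and 15 in AL_DCF. The log2 fold change in AL was 1.10 (SE 0.358, adjusted p = 0.0532 by edgeR's quasi-likelihood test), the largest fold change of the members, which missed the threshold for a call. Other settings fell on either side of that threshold. The adjusted p was 0.0228 by edgeR's exact test and 0.0330 with at least 10 counts in every library, and 0.184 by DESeq2. Over 18 alternatives it ranged from 0.0228 to 0.216.

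TP63 differed by −0.24 on the log2 scale between AL_DCF and ST (adjusted p = 0.717) and by −1.34 between AL_DCF and AL (SE 0.352, adjusted p = 0.161). The exact test called the latter, at −1.35 (adjusted p = 0.0344). The interaction, which measures how far the effect of the AL stimulus differed with diclofenac, was −1.64 (SE 0.520) with an unadjusted p of 0.00865 in edgeR's quasi-likelihood test across all genes and an adjusted p of 0.306. The difference between the drug conditions was therefore not called.

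TP73, a paralog of TP63, had a mean of 16.2 TPM, 63.0 times the level of TP63. TP73 was named after its values were seen. The lowest of the 8 library ratios of TP73 to TP63 was 40.5, so the order held in each library. In AL against ST, TP73 was not called, at 0.26 on the log2 scale (adjusted p = 0.243).

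Of 32 names on a list of TP63 relatives, regulators and basal targets, 31 were in the table and tested. In AL against ST, 18 fell and 1 rose, beside 10.3% and 7.63% of all genes tested. The list median was −0.67. KRT5, the basal keratin whose gene is a classic target of p63, fell from 63.6 ± 2.41 TPM in ST to 21.9 ± 0.221 TPM in AL (SD, n = 2), by 1.52 on the log2 scale (adjusted p = 3.3e-05). The hemidesmosome genes ITGB4 and LAMB3 fell by 0.96 and 1.34 (adjusted p = 1.4e-05 and 3.6e-05), and SFN, which encodes the epithelial 14-3-3 protein, by 0.87 (adjusted p = 0.00014). The exception was the hyaluronan synthase gene HAS3, named after its values were seen, with 0.67 (adjusted p = 0.0145). It was not called without ST_1, ST_2 or AL_1. With both stimulus and drug (AL_DCF against ST), 19 of the 31 fell, beside 9.83% of all genes, with a median of −0.64. TP63 itself was called in neither comparison.

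**Figure D3:**
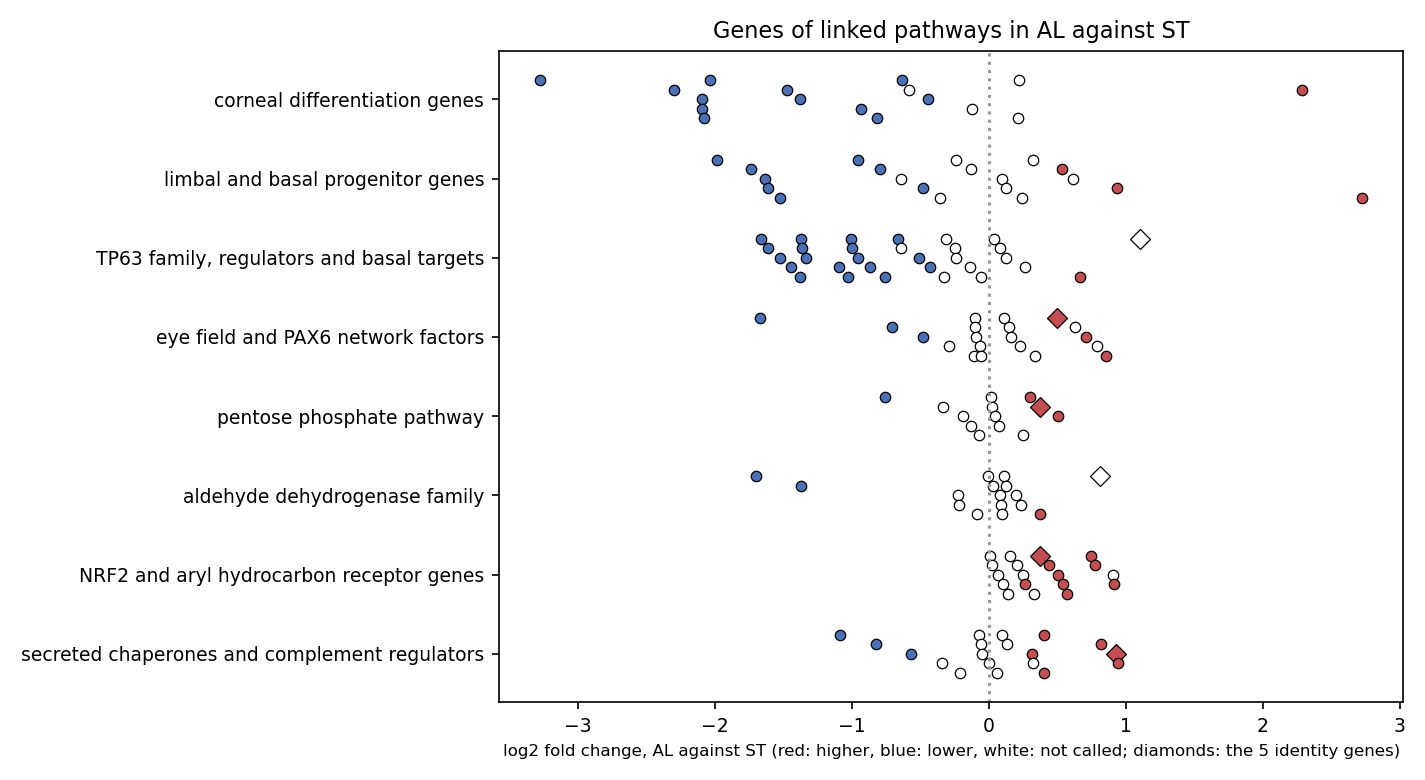
Log2 fold changes in AL against ST of the tested genes of 8 lists linked to the 5 genes, 1 point per gene, red where called higher, blue where called lower and white where not called, with diamonds for the 5 genes themselves. The TP63 list has 18 blue points and its own diamond to the right of 0 and white, and the NRF2 list has no blue point.

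CLU (1191), on chromosome 8 from 27596917 to 27614700 on the minus strand, had the smallest adjusted p of the members in each comparison with a call. Its level was 44.1 and 40.0 TPM in ST, 59.6 and 49.2 TPM in ST_DCF, 77.8 and 81.3 TPM in AL and 75.5 and 75.6 TPM in AL_DCF. The 4 conditions did not overlap, in the order ST, ST_DCF, AL_DCF and AL. Relative to the ST mean, the mean level was 1.29 times as high in ST_DCF, 1.80 times in AL_DCF and 1.89 times in AL. The change in edgeR's quasi-likelihood fit was 0.84 on the log2 scale in AL_DCF against ST (SE 0.0874, adjusted p = 6.2e-05) and 0.49 against ST_DCF (SE 0.0865, adjusted p = 0.0022). These calls and the one in AL held in each fit that left out 1 library.

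With diclofenac alone, CLU differed by 0.35 on the log2 scale (SE 0.0877, unadjusted p = 0.00206 in edgeR's fit across all genes, adjusted p = 0.337). Without ST_DCF_2, which had the lower CLU level of its pair, the value was 0.44 and was called (adjusted p = 0.0447). The interaction of the AL stimulus with diclofenac was −0.44 (SE 0.123, adjusted p = 0.270). Between AL_DCF and AL the difference was −0.09, with a 95% interval from −0.28 to 0.10.

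Of 25 listed secreted chaperone and complement genes, 19 were in the table. In AL against ST 6 of the 19 rose, CLU among them, and 3 fell, with a median of 0.06. Among all genes tested, 7.63% rose and 10.3% fell. C1S, a complement protease gene, rose from 20.3 to 35.7 TPM (log2 fold change 0.82, adjusted p = 0.00035), and HSP90B1, which encodes a chaperone of the endoplasmic reticulum, from 399 to 523 TPM (0.40, adjusted p = 0.00374). HSPB8, a small heat-shock protein gene, fell by 1.09 (adjusted p = 0.00356) and SERPING1, which encodes the inhibitor of the first complement component, by 0.57 (adjusted p = 0.00539). The genes that rose numbered 2 without ST_2 and 3 without AL_2, and those that fell numbered 1 without AL_1 and 1 without AL_2. HSPB1, a small heat-shock protein gene at 477 TPM, was the most abundant of the list and was not called.

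TKT, the abundant enzyme gene, had 326 and 340 TPM in ST and 385 and 390 TPM in ST_DCF. It had 412 and 439 TPM in AL and 467 and 413 TPM in AL_DCF. ST was lowest, ST_DCF lay between, and the conditions with the AL stimulus overlapped each other above both. The change in edgeR's quasi-likelihood fit was 0.37 on the log2 scale in AL (SE 0.0833, adjusted p = 0.00966) and 0.40 in AL_DCF against ST (SE 0.0833, adjusted p = 0.0069). Both calls were lost without ST_1 (0.34 and 0.37, adjusted p = 0.116 and 0.0903) or ST_2 (0.40 and 0.42, adjusted p = 0.0698 and 0.0580), and the call in AL also without AL_2 (0.32, adjusted p = 0.111). The differences of 0.20 in ST_DCF against ST (adjusted p = 0.476) and 0.20 in AL_DCF against ST_DCF (adjusted p = 0.119) were not called.

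Transketolase works with transaldolase in the non-oxidative branch of the pentose phosphate pathway. TKT exceeded TALDO1, the transaldolase gene at a mean of 319 TPM, by a factor of 1.24 over all libraries and of 1.09 to 1.36 within single ones. Of 15 listed pathway genes, 13 were in the table. In AL against ST 3 of the 13 rose, TKT among them, and 1 fell, with a median of 0.02. Among all genes tested, 7.63% rose and 10.3% fell. PRPS1, which makes phosphoribosyl pyrophosphate, rose by 0.30 (adjusted p = 0.0217). RBKS, the ribokinase gene, fell by 0.76 (adjusted p = 0.0475). The oxidative genes PGD and PGLS were not called, at 0.02 and 0.04. The genes that rose numbered 0 without ST_1, 1 without ST_2 and 0 without AL_2, and RBKS was not called without any 1 of the 4 libraries compared. The paralogs TKTL1 and TKTL2 had no entry in the table.

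ALDH3A1 had 0.502 and 0.488 TPM in ST, 0.887 and 0.572 TPM in ST_DCF, 0.759 and 0.975 TPM in AL and 0.614 and 0.721 TPM in AL_DCF. The ST libraries were the lowest, and the 3 other conditions overlapped in part. The largest change was 0.81 in AL against ST (SE 0.350, 95% interval 0.05 to 1.58), which was not called (adjusted p = 0.136 by edgeR's quasi-likelihood test). The others were 0.51 in ST_DCF against ST (adjusted p = 0.648), 0.40 in AL_DCF against ST (adjusted p = 0.479) and −0.41 in AL_DCF against AL (adjusted p = 0.656). ALDH3A1 had 20 and 19 counts in the ST libraries. An antisense gene model overlaps ALDH3A1 over 559 bases and had no entry in the table.

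Other aldehyde dehydrogenases were far more abundant. ALDH1A3, which makes retinoic acid, had a mean of 509 TPM, 738 times the level of ALDH3A1, with a ratio between 221 and 1409 in single libraries. ALDH3A2, a close relative in the family and named after its values were seen, had 49.6 TPM or 72.0 times as much. Of 19 listed family members, 16 were in the table. In AL against ST 1 of the 16 rose and 2 fell, with a median of 0.08. Among all genes tested, 7.63% rose and 10.3% fell. ALDH1A3 went from 694 ± 17.6 TPM in ST to 212 ± 5.47 TPM in AL (SD, n = 2) and thus fell by 1.70 on the log2 scale (adjusted p = 2.7e-05). ALDH3B2 fell by 1.37 (adjusted p = 0.0146), and ALDH2, the mitochondrial enzyme gene of ethanol metabolism, rose by 0.38 (adjusted p = 0.00809). ALDH2 was not called without ST_1, ST_2 or AL_2, and the genes that fell numbered 1 without ST_1, AL_1 or AL_2. ALDH1A1, which the cornea of several mammals holds in place of or beside ALDH3A1, had no entry in the table.

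ALDH3A1 and TKT are both known as targets of the stress-response factors NRF2 or the aryl hydrocarbon receptor. Of 20 listed genes of these pathways, 19 were in the table. In AL against ST 9 of the 19 rose, TKT among them, beside 7.63% of all genes tested, with a median of 0.33. NQO1, a quinone reductase gene induced by both factors, rose from 302 ± 4.55 to 567 ± 12.7 TPM (SD, n = 2; log2 fold change 0.92, adjusted p = 2.0e-05). TXNRD1, the thioredoxin reductase gene, rose by 0.57 (adjusted p = 0.0007), and HMOX1, the heme oxygenase gene, by 0.75 (adjusted p = 0.0011). NFE2L2, which encodes NRF2, was not called, at 0.01. In AL_DCF 11 rose, TKT again among them, beside 8.49% of all genes tested. The fold changes of all 19 were above 0 in both comparisons. The genes that rose in AL numbered 5 without ST_1, 5 without ST_2 and 5 without AL_2, and in AL_DCF 6 and 3 without the first and second ST replicate.

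With diclofenac alone (ST_DCF against ST), no member was called, beside 0.00573% of all genes tested, which is 1 gene. CLU and TKT had unadjusted p under 0.05 there, and neither DESeq2 nor the exact test called a member. In AL_DCF against AL, no member was called either, beside 0.355% of all genes (0.103% higher and 0.252% lower), and TP63 alone had an unadjusted p under 0.05. The exact test called TP63, and DESeq2 gave it no adjusted p. In AL_DCF against ST, 2 members, CLU and TKT, were called higher (18.3% of all genes in either direction, 8.49% higher and 9.83% lower), and in AL_DCF against ST_DCF 1, CLU, was called higher (20.7% in either direction, 9.38% higher and 11.4% lower). TKT was not called in AL_DCF against ST without ST_1 or ST_2. For the interaction no member was called, beside 0.0344% of all genes, with CLU and TP63 at unadjusted p under 0.05 and no call by DESeq2, which gave ALDH3A1 and TP63 no adjusted p. The comparisons against ST share its 2 libraries and are not independent of each other.

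**Figure D4:**
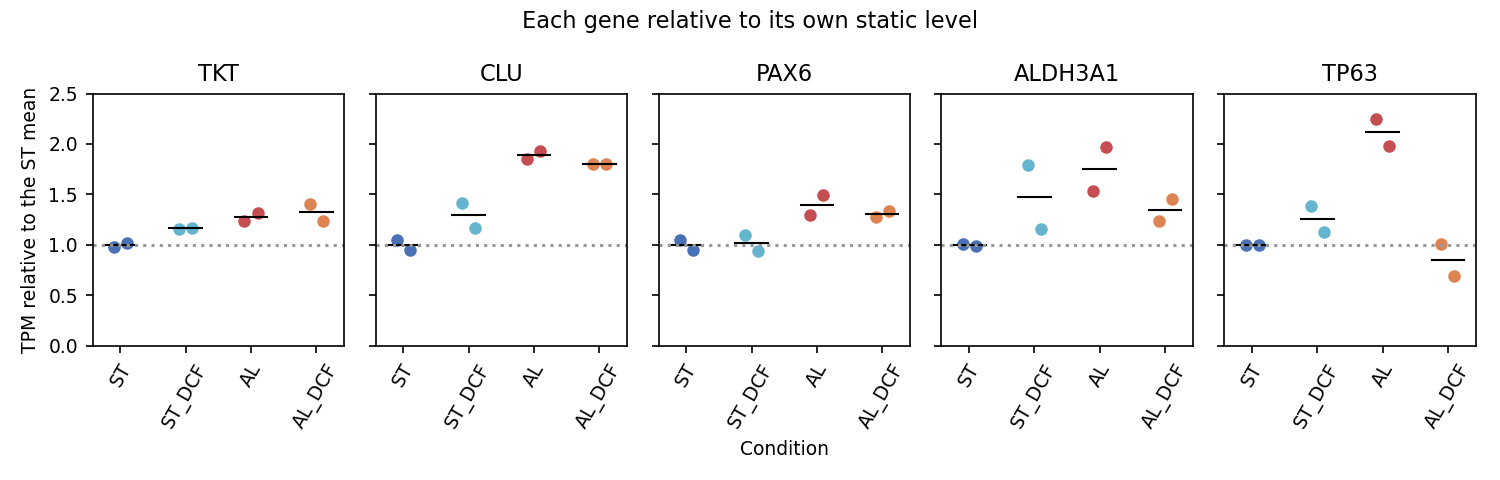
TPM of each gene divided by its own ST mean, 1 point per library and a black bar for the mean of the 2 libraries of a condition, with a dotted line at 1. The mean in AL was 1.28 for TKT, 1.89 for CLU, 1.40 for PAX6, 1.75 for ALDH3A1 and 2.12 for TP63, and TP63 alone had a mean below 1 in AL_DCF, at 0.849.

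Over the log2 CPM of the 8 libraries, PAX6, CLU and TKT varied together, as a description of points that share their condition and depth. Pearson's r was 0.932 between PAX6 and CLU, 0.893 between CLU and TKT and 0.786 between PAX6 and TKT. TP63 had values between 0.273 and 0.617 with the others. Among 11002 genes with a mean log2 CPM above 3, the pattern most like that of PAX6 was found for CHN1 (r = 0.986), KRCC1 (0.983) and SPDL1 (0.983). For CLU the genes were PDIA6 (0.988), ICAM3 (0.987) and HPSE (0.987), and for TKT ASMTL (0.981), the pseudogene FRG1HP (0.980) and PFKM (0.978). For ALDH3A1 they were APOLD1 (0.956), GPSM2 (0.954) and NOMO1 (0.948), and for TP63 SSBP3 (0.958), SEMA4D (0.951) and TGFB1 (0.946).

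Levels of wider marker lists were set beside the members to judge the corneal character of the line. Of 26 listed genes of corneal differentiation, 17 were in the table, 14 of them at a mean of at least 1 TPM. KRT12 and KRT3, the keratin pair that defines the differentiated corneal epithelium, had no entry in the table, so no level can be given for them. The genes in the table included CDH1, which encodes E-cadherin, at 108 TPM, and the epithelial factor gene ELF3 at 48.2 TPM. Of 24 limbal and basal genes, 20 were in the table, 17 of them at a mean of at least 1 TPM. They were led by IFITM3 at 3163 TPM and the simple-type keratin gene KRT19 at 722 TPM. The keratin gene KRT14, named after its values were seen, was at 0.829 TPM, beside 50.6 TPM for KRT5. ABCB5, GPHA2, ITGA9 and CASP14 had no entry. Of 13 crystallin and abundant soluble enzymes, 12 were in the table, and 11 of these were above 1 TPM, ALDH3A1 being the exception.

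**Figure D5:**
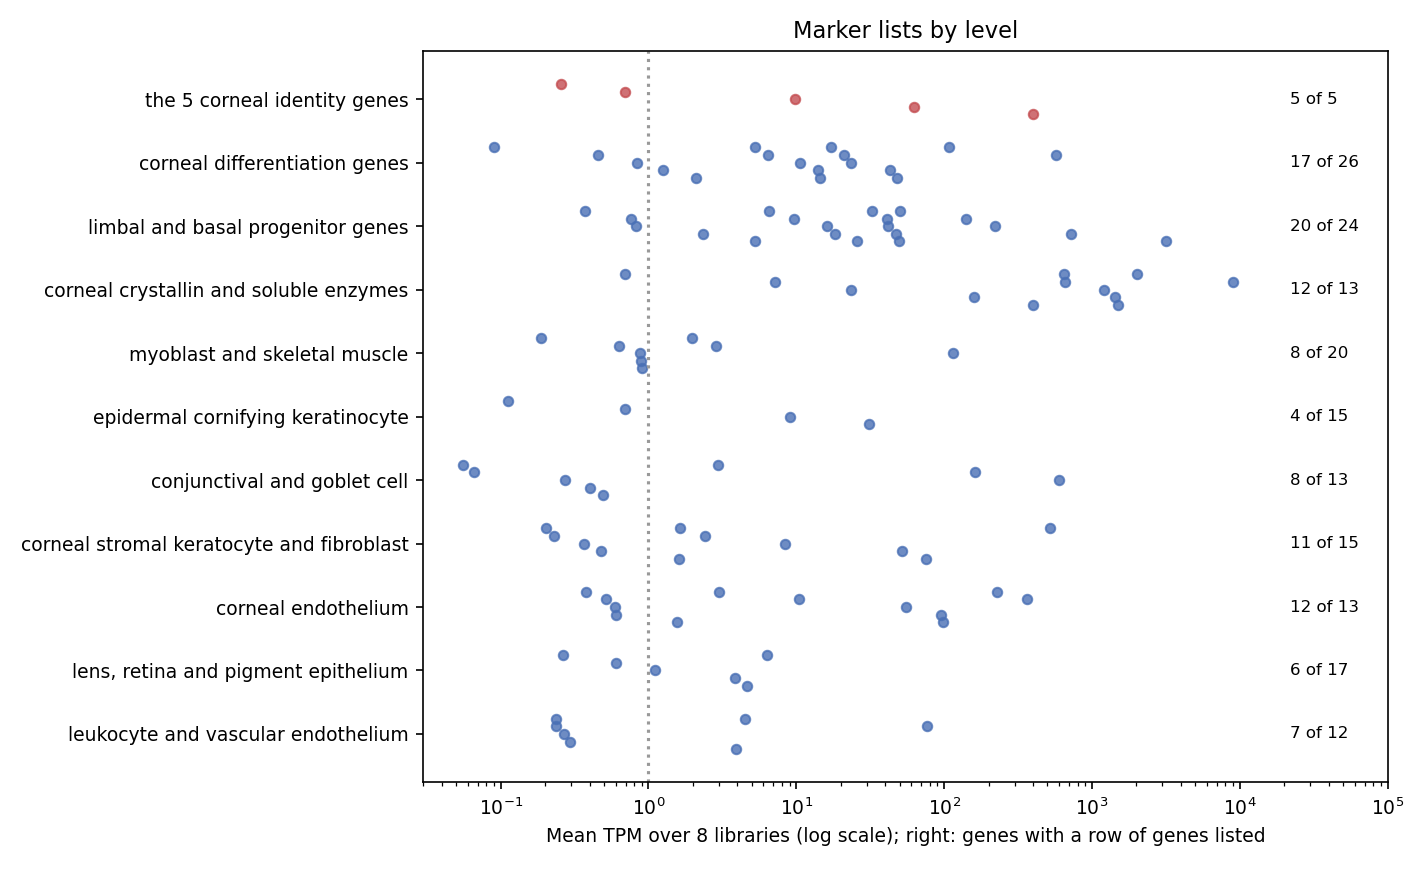
Mean TPM over 8 libraries (log scale) of every listed gene that was in the table, 1 point per gene, with red for the 5 identity genes, a dotted line at 1 TPM and, at the right, how many of the listed genes were in the table. TP63 and ALDH3A1 lie left of the line, and the soluble enzymes reach 8953 TPM with GAPDH.

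While PAX6, CLU and TKT rose in AL, most genes of corneal differentiation fell. In AL against ST, 12 of the 17 fell and 1 rose, beside 10.3% and 7.63% of all genes tested. The median of the 17 was −0.93, and their summed level went from 1176 to 1280 TPM in ST to 468.0 to 468.3 TPM in AL. MUC16, a membrane mucin gene of the ocular surface, fell from 2.38 ± 0.206 to 0.230 ± 0.00861 TPM (SD, n = 2), by 3.28 on the log2 scale (adjusted p = 1.1e-07). CDH1 fell by 2.08 (adjusted p = 1.8e-07), from 167 and 172 TPM in ST to 40.0 and 39.6 TPM in AL. The gene that rose was GJA1, a gap junction gene at 0.458 TPM named after its values were seen. The AL_DCF libraries gave 12 that fell and 1 that rose against ST, beside 9.83% and 8.49% of all genes, with a median of −1.09. The rise of GJA1 in AL_DCF was not called without either library of ST, AL or AL_DCF.

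Among limbal and basal genes, 8 of 20 fell and 3 rose in AL, beside 10.3% and 7.63% of all genes tested. The list median was −0.30. CDH3, which encodes P-cadherin, fell by 1.99 (adjusted p = 1.9e-07) and KRT19 by 1.74 (adjusted p = 3.7e-07), from 1093 and 1118 TPM in ST to 331 and 328 TPM in AL. FRZB, a gene for a secreted inhibitor of Wnt signals, rose by 2.73 (adjusted p = 1.3e-06). Among the soluble enzymes 5 of 12, TKT included, rose, beside 7.63% of all genes tested. The fold changes of all 12 were above 0, with a median of 0.28. ENO1, the enolase gene, rose by 0.41 (adjusted p = 0.0022). The enzymes that rose numbered 1 without ST_1, 2 without ST_2, 3 without AL_1 and 2 without AL_2, and 8 without ST_DCF_1, ST_DCF_2 or AL_DCF_2.

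Markers of other cell types were read in the same libraries. Of 20 muscle genes, 8 were in the table with a median of 0.894 TPM, and MYOD1, MYOG and PAX7 were among the 12 without an entry. TNNT1, a slow troponin gene, stood apart from them at 114 TPM, and DES, which encodes desmin, was at 0.899 TPM and rose in AL by 1.34 (adjusted p = 0.0205), a call that was lost without any 1 of the ST or AL libraries. The summed level of the 8 was 111 to 112 TPM in ST and 107.6 to 108.0 TPM in AL. It was 127 to 138 TPM in ST_DCF and 134 to 143 TPM in AL_DCF. TNNT1 rose by 0.35 in AL_DCF against ST (adjusted p = 0.0090), a call that was lost without ST_1 or ST_2. Of 15 stromal genes, 11 were in the table, and 7 rose in AL, beside 7.63% of all genes tested. The summed level of the 11 went from 518 to 530 TPM in ST to 842 to 929 TPM in AL. It was 462 to 483 TPM in ST_DCF and 736 to 791 TPM in AL_DCF. Most of it was VIM, the vimentin gene, which rose by 0.86 in AL (adjusted p = 2.6e-05). The stromal keratocyte gene KERA had no entry in the table. KRT7, a keratin gene of simple epithelia on the conjunctival list, was at 597 TPM over the 8 libraries and fell in AL by 1.38 (adjusted p = 2.1e-06). The summed level of the 8 conjunctival genes in the table was 1047 to 1100 TPM in ST, 1185 to 1238 TPM in ST_DCF, 373 to 390 TPM in AL and 351 to 424 TPM in AL_DCF. The 4 epidermal genes summed to 44.6 to 45.1 TPM in ST, 38.7 to 47.0 TPM in ST_DCF, 38.8 to 39.3 TPM in AL and 35.6 to 37.2 TPM in AL_DCF. Most of that was KRT10, a suprabasal keratin gene, which was not called, whereas the cornified envelope genes IVL and TGM1 fell in AL by 2.24 and 1.06 (adjusted p = 0.00629 and 0.00115), and 1 of these calls was lost without AL_1. The 7 leukocyte and vascular genes summed to 81.9 to 83.6 TPM in ST and 59.2 to 60.8 TPM in AL. They summed to 99.95 to 116 TPM in ST_DCF and 85.7 to 96.4 TPM in AL_DCF. Most of this sum was CD68, at 72.8 and 74.9 TPM in ST and 55.1 and 51.6 TPM in AL, whereas the list median was 0.295 TPM. The 12 genes of the corneal endothelium summed to 786 to 803 TPM in ST, 810 to 965 TPM in ST_DCF, 862 to 866 TPM in AL and 879 to 882 TPM in AL_DCF. The 6 genes of lens and retina summed to 13.8 to 16.2 TPM in ST, 14.5 to 16.2 TPM in ST_DCF, 18.4 to 19.1 TPM in AL and 17.4 to 18.6 TPM in AL_DCF. The lens gene CRYAA and the leukocyte gene PTPRC had no entry in the table. The part of such cells, or of such genes in the HCE-T cells, in the changes of the 5 members was not tested.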

How the data were processed

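Each of 4 conditions had 2 libraries of HCE-T cells, made with a stranded mRNA kit. The authors used FastQC 0.11.7 for quality, Trimmomatic 0.38 for trimming, HISAT2 2.1.0 for alignment to GRCh38 (Bowtie2 2.3.5.1 is listed too) and StringTie 2.1.3b for assembly and counting. The read count of each gene is deposited without normalization. The deposited TPM and FPKM values, scaled by the authors for transcript length and library size, gave the levels and 1 alternative to them. The deposited log2 values are normalized by the authors and were not used, nor were the authors' own columns of fold change, p-value and adjusted p-value for each comparison. Each of the 18430 genes had a count of 1 or more in all libraries.

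The analysis used edgeR 4.0.16 in R 4.3.3. Filtering with filterByExpr by condition left 17445 genes, factors came from TMM, and 1 model of 4 conditions without a block was fitted to the 8 libraries with the quasi-likelihood test. Every adjusted p printed comes from that test after Benjamini-Hochberg adjustment across the genes tested, unless another tool is named. Log2 CPM used a prior count of 2. Replicate numbers were not taken as pairs, since deviations from group means correlated between groups from −0.102 to 0.0985. Replicates differed by more than counting noise in each group, and most with diclofenac. The chi-square per degree of freedom between replicates was 5.3 in ST, 8.75 in AL and 23.4 in both ST_DCF and AL_DCF. The part of this difference in the calls was not tested. Alternatives were DESeq2 1.42.0, edgeR's exact test, upper-quartile or RLE factors, all genes without a filter, a minimum of 10 counts per library, the compared libraries alone, the replicate block, limma 3.58.1 on log2 TPM with a pseudocount of 1 or 0.1, rescaled FPKM for levels, and each library left out in turn. The scripts were tested on simulated data.

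The 5 members and the 16 other lists were chosen with earlier results of these data known. Older names on the lists (APOJ for CLU, CD166 for ALCAM, BPAG1 for DST, LOR for LORICRIN) matched no entry. Named genes were the members, up to 6 called genes of each linked list by adjusted p in AL or AL_DCF, the 4 most abundant of each list, the 4 smallest adjusted p of each marker list, the 3 genes most like each member, and fixed defining markers. Some genes that this rule names are not reported here, though the counts of their lists include them.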

Additional observations from a re-analysis of the deposited data

Results flagged for a closer look

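TP63 values under the AL stimulus lay on opposite sides of the matched static libraries without and with diclofenac. Both AL libraries, at 0.443 and 0.391 TPM, were above both ST libraries, at 0.197 TPM, whereas both AL_DCF libraries, at 0.199 and 0.136 TPM, were below both ST_DCF libraries, at 0.273 and 0.223 TPM. Neither effect was called by edgeR's quasi-likelihood test, at 1.10 in AL against ST (adjusted p = 0.0532) and −0.54 in AL_DCF against ST_DCF (95% interval −1.36 to 0.29, adjusted p = 0.354). The difference between these effects was −1.64 on the log2 scale (SE 0.520). It was tested as the interaction in edgeR's quasi-likelihood fit and did not pass the threshold (adjusted p = 0.306). The adjusted p over the alternatives that gave one ranged from 0.160 to 0.802, with 15 to 47 TP63 counts per library.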

How the results depend on the processing

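CLU in AL and in both AL_DCF comparisons against static libraries kept its direction and its call in each of 18 alternatives, and no called result of a member reversed. The sign of 4 uncalled values depended on the setting, with ranges of −0.05 to 0.11 for PAX6 in ST_DCF against ST, −0.21 to 0.02 for PAX6 and −0.05 to 0.10 for TKT in AL_DCF against AL, and −0.33 to 0.17 for ALDH3A1 in AL_DCF against ST_DCF. The call of PAX6 in AL was lost with limma on log2(TPM + 1) (0.44, adjusted p = 0.0586) and log2(TPM + 0.1) (0.48, adjusted p = 0.0529), and its fold change lay between 0.38 and 0.61 with 1 library left out. CLU in ST_DCF against ST ranged from 0.26 to 0.44, with a call only without ST_DCF replicate 2. TKT ranged from 0.32 to 0.42 in AL and from 0.32 to 0.47 in AL_DCF against ST. TP63 in AL was called with the exact test (1.11), upper-quartile factors (1.13, adjusted p = 0.0483), no filter (1.10, adjusted p = 0.0404), at least 10 counts (1.10) and the compared libraries alone (1.10, adjusted p = 0.0354), and in AL_DCF against AL with the exact test (−1.35). CLU in AL_DCF was 75.7 TPM from rescaled FPKM against 75.6 TPM. Counts of called genes depended on the test. For ST_DCF against ST the 1 call became 73 with DESeq2, 91 with the exact test and 0 with no filter or either limma setting. For AL against ST, 3124 became 5676 with the exact test and 5593 with the compared libraries alone. For AL_DCF against AL, 62 became 261 with DESeq2, 367 with the exact test, 24 with no filter, 30 with the compared libraries alone and 26 and 29 with limma. For AL_DCF against ST_DCF, 3619 became 1893 with the compared libraries alone. For the interaction, 6 became 149 with DESeq2, 3 with no filter and 0 with either limma setting. With 1 library left out, the calls ranged from 0 to 308 for ST_DCF against ST, the highest without ST_DCF replicate 2, from 1392 to 3750 for AL, from 1322 to 3857 for AL_DCF against ST, from 10 to 143 for AL_DCF against AL, from 2357 to 3577 for AL_DCF against ST_DCF and from 0 to 189 for the interaction. Where a condition kept 1 library, it was assumed to vary like the others. The causes of these differences were not tested.

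With the replicate number as a block, the 1 call in ST_DCF against ST became 0, the calls in AL against ST became 2915, and no call of a member changed. DESeq2 gave TP63 no adjusted p in ST_DCF against ST, in AL_DCF against AL and in the interaction, nor ALDH3A1 in the interaction, and the exact test and the fit of the compared libraries alone give no interaction. ALDH3A1 and TP63 had the lowest depth of the members, at most 48 counts in a library.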
